A study of Mus musculus with 24 samples.

Results

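The expression of 10 genes of antigen presentation was examined in the brains of mice infused with angiotensin II and treated with amnion epithelial cells. The 10 genes encode the major histocompatibility complex (MHC) class I chains (H2-K1, H2-D1 and B2m), the proteins that make and move peptides for class I (Tap1, Tap2, Psmb8 and Psmb9), and the class II chains with their chaperone (H2-Aa, H2-Ab1 and Cd74). They were chosen by name from the 54532 genes of the expression table, and each name was found once. All 10 were above 0 in every mouse and passed the filter on low values.

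Bulk RNA sequencing of poly-A RNA was performed on brain hemispheres of 24 male wild-type C57Bl6 mice (C57BL/6J in the study's methods) aged 8 to 12 weeks, with 6 mice in each of 4 groups. A minipump under the skin delivered saline (vehicle) or 0.7 mg/kg/day of angiotensin II, a peptide hormone that raises blood pressure, for 2 weeks. The other groups, vehicle + amnion epithelial cells and angiotensin II + amnion epithelial cells, were infused in the same way. They also received 1000000 human amnion epithelial cells, which line the inner membrane of the placenta, by injection into the tail vein. By the study's methods, mice that received no cells were given saline by the same route. All 24 mice therefore shared the genotype, the sex, the pump and a tail vein injection. Values were deposited as FPKM, which scales the fragments found on a gene by its length and by library size, so that levels can be compared between genes.

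Class I molecules are found on nearly all nucleated cells. A heavy chain such as H2-K1 or H2-D1 pairs with beta-2 microglobulin (B2m) and shows peptides of the cell's own proteins to CD8+ T cells. The peptides are cut by the proteasome, in which interferon can exchange the standard catalytic subunits for Psmb8 and Psmb9, and are carried into the endoplasmic reticulum by the Tap1 and Tap2 transporter. Class II molecules show peptides from endocytosed material to CD4+ T cells and are made by professional antigen presenting cells. In the healthy brain, class I is low in neurons and higher in endothelium, and class II is found mostly on macrophages at the borders of the tissue and on few microglia. In a bulk sample, fewer cells of a type and less RNA per cell cannot be told apart.

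The libraries held 16536449 to 25308700 fragments per mouse. They fell into 2 sets by the sum of FPKM over all genes, which was 338334 to 348597 in 6 libraries and 277116 to 298301 in the other 18 libraries. The 6 libraries of high total FPKM were replicates 5 and 6 of the vehicle group, replicate 5 of the angiotensin II group, replicate 6 of the vehicle + amnion epithelial cells group, and replicates 5 and 6 of the angiotensin II + amnion epithelial cells group. Their share of mitochondrial fragments was 6.17% to 6.85%, against 4.79% to 5.75% in the 18 libraries. The labels give no batch, and the comparisons of the 10 genes between the groups are also given for the 18 libraries alone. Markers of neurons, astrocytes and oligodendrocytes were present in every mouse, with summed levels of at least 410, 124 and 741 FPKM.

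Of the 10 genes, 8 lie in the MHC region of chromosome 17 in GRCm38. From the start of the region, these are H2-K1 (33996017 to 34000333, minus strand), Psmb9 (34181988 to 34187764, minus strand), Tap1 (34187553 to 34197225, plus strand), Psmb8 (34197721 to 34201454, plus strand), Tap2 (34203527 to 34216321, plus strand), H2-Ab1 (34263209 to 34269418, plus strand), H2-Aa (34282744 to 34287827, minus strand) and H2-D1 (35262730 to 35267499, plus strand). B2m lies on chromosome 2 (122147686 to 122153083, plus strand). Tap1 and Psmb9 lie head to head and overlap by 212 bases, and B2m lies within Patl2 on the opposite strand, which had a mean of only 0.0831 FPKM. The use of strand in counting is not given in the sources used here, so reads in these overlaps are uncertain, as are reads that H2-K1 and H2-D1 share with near-identical class I genes.

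The stretches before the start sites of H2-K1, B2m and H2-Aa are shown because they hold the letters of elements through which this gene family is known to be switched on. The sequences are those of RefSeq for GRCm38.p6, which had a promoter entry for 7 of the 10 genes, and those shown lie outside the annotated exons. They are written in the direction of transcription, and capitals mark the kappaB letters GGGATTCC and the CCAAT box (ATTGG) in H2-K1, the interferon-stimulated response element (ISRE, GAAA, 2 bases of any kind and GAAA) and the CCAAT box in B2m, and the cyclic AMP response element (CRE, TGACGTCA) and the CCAAT box in H2-Aa.
H2-K1, chr17:34000348-34000477, minus strand: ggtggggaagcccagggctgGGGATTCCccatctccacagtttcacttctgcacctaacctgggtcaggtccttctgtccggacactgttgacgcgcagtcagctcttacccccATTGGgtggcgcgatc
B2m, chr2:122147537-122147685, plus strand: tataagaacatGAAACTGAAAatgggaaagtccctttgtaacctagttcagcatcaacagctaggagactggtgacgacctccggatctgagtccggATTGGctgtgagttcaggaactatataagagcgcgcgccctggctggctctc
H2-Aa, chr17:34287828-34287973, minus strand: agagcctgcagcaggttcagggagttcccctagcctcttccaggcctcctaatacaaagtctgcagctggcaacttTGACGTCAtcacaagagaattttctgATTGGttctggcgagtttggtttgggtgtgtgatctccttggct

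Counted from the start site at position 0, the kappaB letters of H2-K1 lay at -110 to -103 and the ISRE of B2m at -139 to -130. H2-D1 also held the kappaB letters, at -170 to -163, but within an annotated exon, so its stretch is not shown. On both strands of the 250 bases before the start of 32851 promoters, these letters were found in 0.889% for kappaB and 2.98% for the ISRE, against 33.8% for the CCAAT box and 1.55% for the CRE. The letters AGCAAC, a core of the class II X box, were searched in the same way and were in none of the 7 promoters, against 12.2% of all. H2-Aa was the only class II gene with a promoter entry. Only these exact letters were searched, so their absence does not show that H2-Aa lacks an X box. The CRE was searched after the H2-Aa sequence had been read. These matches are a description of letters and were not tested as sites.

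The class I genes were the highest of the 10 in the brain. Averaged over the 24 mice, expression was 97.1 ± 20.9 FPKM for B2m, 30.05 ± 5.90 FPKM for H2-D1 and 14.4 ± 3.004 FPKM for H2-K1 (SD, n = 24). This order held in 24 of 24 mice. Within a mouse, H2-D1 was a median of 2.08 times H2-K1, with a range of 1.84 to 2.54, and the light chain B2m was 3.20 times H2-D1.

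Of the class II genes, Cd74, the invariant chain that guards the peptide groove of class II, had 6.65 ± 2.75 FPKM (SD, n = 24). It lies on chromosome 18 (60803848 to 60812646, plus strand of GRCm38), and its level was below H2-K1 and above that of H2-Ab1 in 24 of 24 mice. The beta chain gene H2-Ab1 had 2.36 ± 1.04 FPKM and the alpha chain gene H2-Aa had 1.90 ± 0.831 FPKM (SD, n = 24). Cd74 was thus a median of 3.54 times H2-Aa in the same mouse. H2-Ab1 was the higher of the 2 chain genes by a median of 1.27 times, but this ratio ran from 0.728 to 2.03 over the mice.

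The genes that supply peptides to class I were low. Tap2 had 2.33 ± 0.419 FPKM and Tap1 0.758 ± 0.170 FPKM (SD, n = 24), a median ratio of 2.99 for the 2 chains of one transporter. Psmb8 had 1.08 ± 0.384 FPKM and Psmb9 0.529 ± 0.218 FPKM. Psmb5 and Psmb6, the standard subunits that Psmb8 and Psmb9 replace, had means of 107 and 54.1 FPKM, so that the median ratio within a mouse was 0.0101 for Psmb8 to Psmb5 and 0.00976 for Psmb9 to Psmb6. These low ratios are those of Psmb8 and Psmb9 only. Psmb10, a further proteasome subunit outside the 10 genes, had a mean of 20.8 FPKM, and the standard subunit Psmb7 had 24.4 FPKM. The neighbours H2-Ab1 and Tap2 could not be ordered, with H2-Ab1 the higher in 11 of 24 mice. The order of Psmb8 over Tap1 held in 20 of 24 mice and that of Tap1 over Psmb9 in 22. Psmb9 was the least well measured, with 15 to 81 fragments per mouse, and Psmb8, H2-Aa and H2-Ab1 had minima of 30, 31 and 34 fragments.

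**Figure D1:**
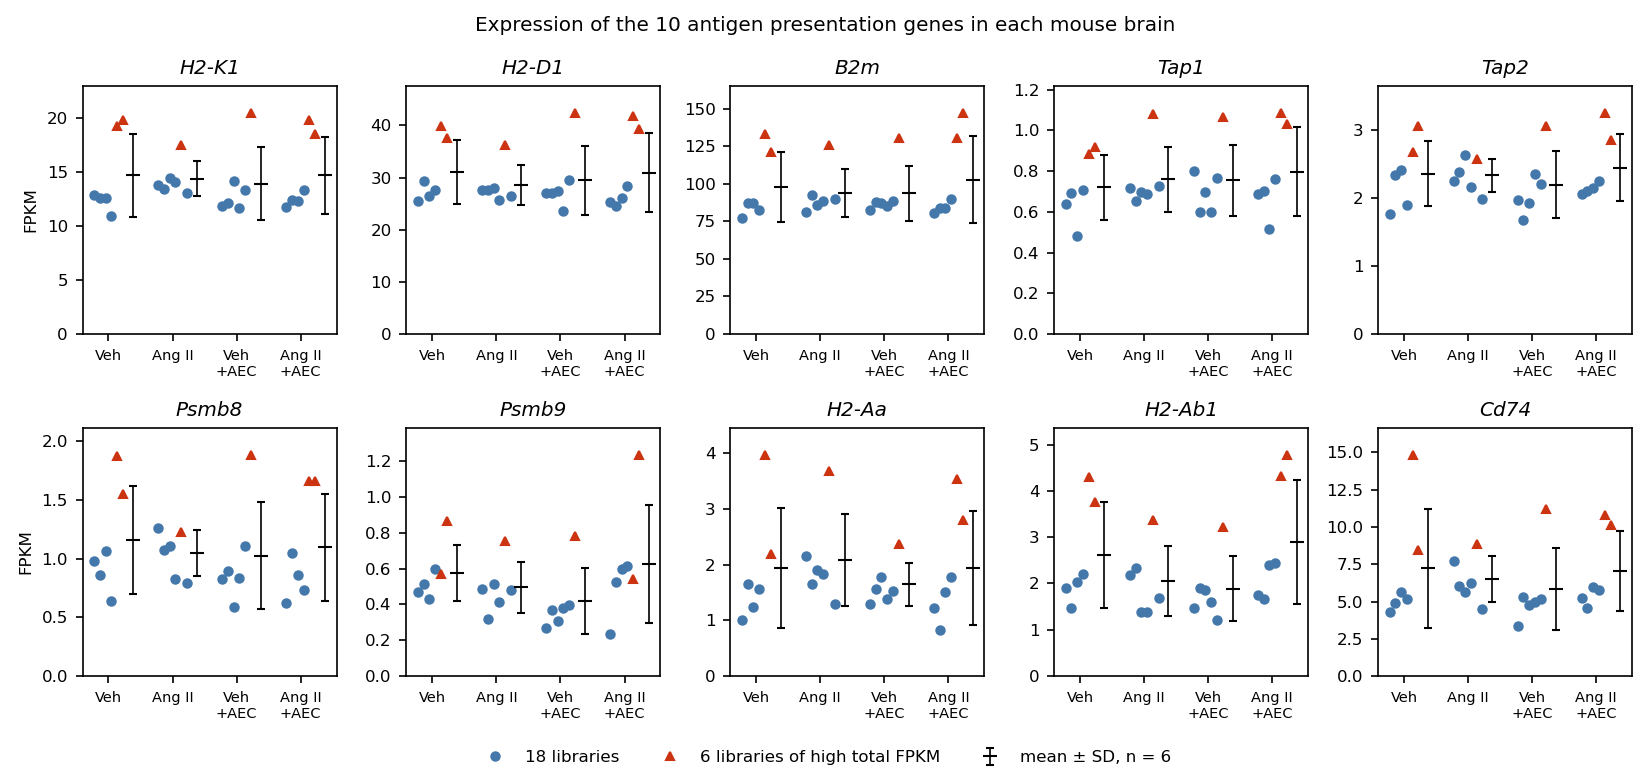
Expression in FPKM (vertical axes, linear from 0) of the 10 genes in each mouse of the 4 groups (Veh, vehicle; Ang II, angiotensin II; AEC, amnion epithelial cells), with the mean ± SD of 6 mice beside each group. The 6 libraries of high total FPKM (triangles) lie above the 18 others (circles) in every group for 7 of the 10 genes, and the 4 groups overlap for each gene.

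The greatest difference in these genes was between the 2 sets of libraries and not between the 4 groups. Each of the 10 genes had a higher mean in the 6 libraries of high total FPKM than in the 18 libraries. For 7 of the 10 genes every one of the 6 libraries lay above every one of the 18. Over all 27286 genes tested this was so for 11.2%, and a further 16.3% lay wholly below. The exceptions were Tap2, Psmb8 and Psmb9, for which 5, 5 and 4 of the 6 libraries lay above all 18.

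The class II genes differed most. H2-Ab1 was 3.21 to 4.78 FPKM in the 6 libraries and 1.21 to 2.45 FPKM in the 18 libraries. Cd74 was 8.45 to 14.9 FPKM against 3.35 to 7.70 FPKM, and H2-Aa was 2.20 to 3.98 FPKM against 0.818 to 2.16 FPKM. On the log2(FPKM + 0.1) scale the mean differences were 1.09, 1.001 and 0.99, and the ratios of the means were 2.17, 2.03 and 2.05. These differences were above those of 99.5% to 99.6% of the 13649 genes with a mean of at least 1 FPKM.

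The class I genes differed less and more evenly. B2m was 121 to 147 FPKM in the 6 libraries against 77.2 to 92.7 FPKM in the 18, H2-D1 was 36.3 to 42.5 against 23.6 to 29.6 FPKM, and H2-K1 was 17.5 to 20.5 against 10.9 to 14.5 FPKM. The log2 differences were 0.62, 0.56 and 0.58. These were above those of 91.1%, 87.8% and 89.4% of the 13649 genes with a mean of at least 1 FPKM. The ratio of H2-D1 to H2-K1 had a median of 2.08 in the 6 libraries and 2.08 in the 18 libraries. Among the peptide supply genes, the log2 difference was 0.43 for Tap2, 0.53 for Tap1, 0.71 for Psmb9 and 0.82 for Psmb8. In the same order, these were above those of 79.8%, 85.9%, 95.4% and 98.5% of the 13649 genes.

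The median log2 difference was 0.66 for the 10 genes and -0.07 for all genes tested. After median ratio scaling between the libraries it was 0.72 and -0.04, and 8 of the 10 genes did not overlap, against 13.1% of all genes. Over 13633 genes with a mean of at least 1 FPKM, the difference between the sets had a Spearman rho of -0.522 with gene length and 0.452 with GC content, as a description across genes that share the same libraries. Tap1, with 5476 bases, was the only one of the 10 genes longer than the median of 3997 bases. GC content was 41.2% in B2m and 46.5% in H2-Aa, under the median of 50.2%, and 52.5% to 57.3% in the other 8 genes. The part of length and GC content in the differences was not tested.

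**Figure D2:**
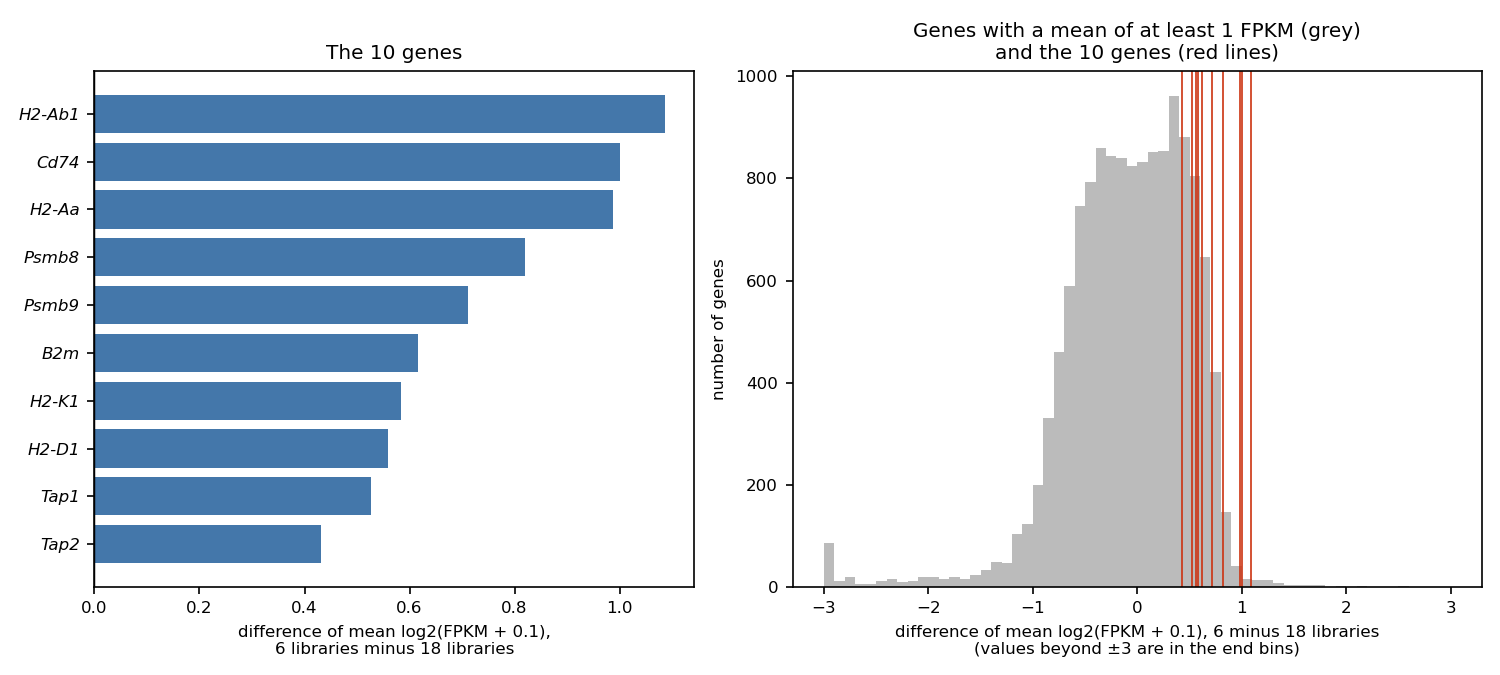
Difference in mean log2(FPKM + 0.1) between the 6 libraries of high total FPKM and the 18 others for the 10 genes (left, bars from 0) and the distribution of the same difference over 13649 genes with a mean of at least 1 FPKM (right, red lines mark the 10 genes). All 10 bars are positive, from 0.43 for Tap2 to 1.09 for H2-Ab1, and the 3 class II genes lie at the far right of the distribution.

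**Figure D3:**
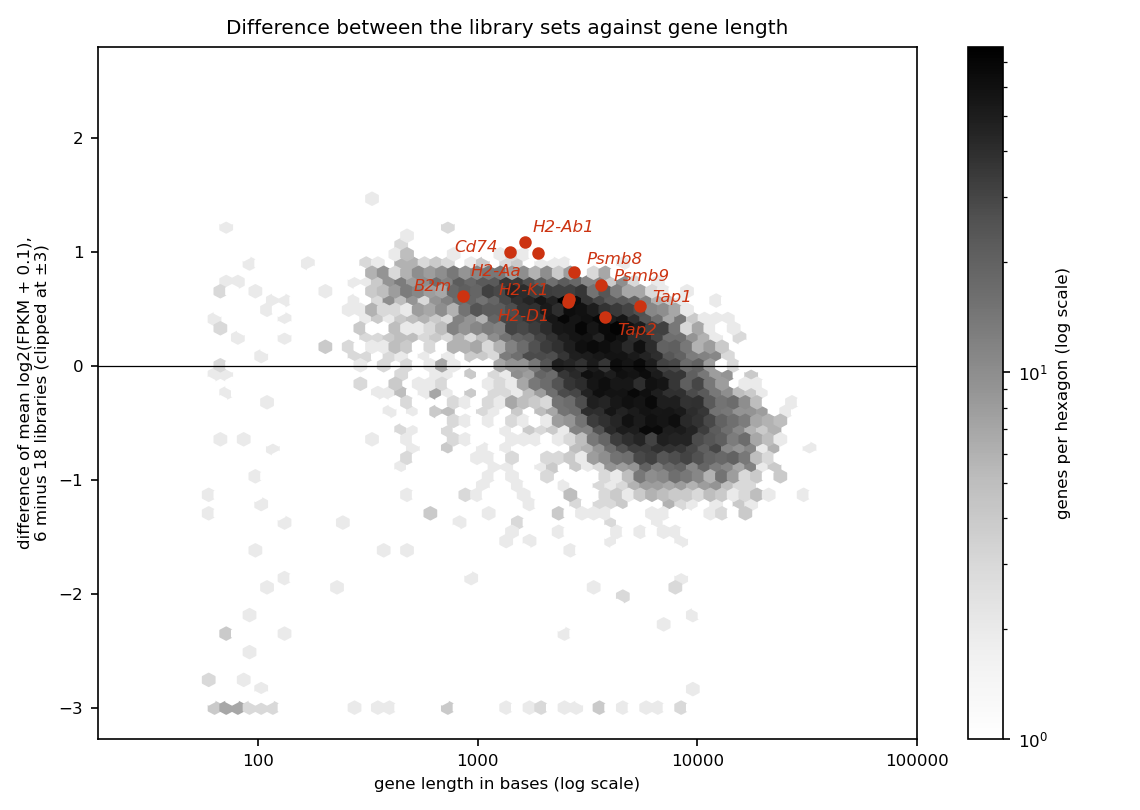
Difference in mean log2(FPKM + 0.1) between the 6 and the 18 libraries (vertical axis, clipped at ±3) against gene length in bases (log scale) for genes with a mean of at least 1 FPKM, shaded by the number of genes per hexagon, with the 10 genes in red. Shorter genes tended to be higher in the 6 libraries (rho -0.522), and H2-Ab1, H2-Aa and Cd74 lie at 0.99 to 1.09.

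Related genes differed between the sets in both directions, and their counts are given beside the 11.2% of all genes that lay wholly above and the 16.3% that lay wholly below. Of 19 further class I pathway genes 7 lay wholly above and 2 wholly below, and of 12 further class II pathway genes 3 lay above and 1 below. The 3 were H2-Eb1 (log2 difference 1.04), another class II beta chain, H2-DMa (0.65), which helps load peptides, and Ctss (0.31), the protease that trims Cd74. The 1 gene below was Ciita (-0.76), the transactivator that switches on class II genes. Of 10 regulators 0 lay wholly above and 3 wholly below, which were Rfx5 (-1.09), which binds class II promoters, and the kinases Jak1 (-0.70) and Jak2 (-0.64) of interferon signalling. The standard proteasome subunits Psmb5 (0.72), Psmb6 (0.65) and Psmb7 (0.35) lay wholly above as well. These genes were named after their values were seen. Of 17 interferon-induced genes 3 lay above and 1 below.

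Markers of cells that can carry class II moved with the sets only in part. The summed level of 8 microglial markers was 139 to 156 FPKM in the 6 libraries and 108 to 125 FPKM in the 18, with 2 of 8 genes wholly above and 2 wholly below. C1qa (log2 difference 0.84) had the highest mean of the 8, 48.5 FPKM, and only 4 of 8 had a higher mean in the 6 libraries. The sum of 6 perivascular macrophage markers was 5.07 to 8.01 FPKM against 2.86 to 5.03 FPKM, with 0 of 6 wholly above and 1 below. Pf4 (log2 difference 1.22), Cbr2 (1.01) and Lyve1 (0.12) were higher in the 6 libraries. Cd163 (-0.65), F13a1 (-0.59) and Mrc1 (-0.16) were lower there. The sum of 6 dendritic cell markers was 3.12 to 4.26 FPKM against 4.82 to 6.28 FPKM. Flt3 (mean 2.55 FPKM) and Zbtb46 (2.34 FPKM) made up nearly all of it. Itgax, Xcr1, Clec9a and Ccr7 had means of only 0.005 to 0.064 FPKM, so the sum does not describe these low genes. The sum of 5 B cell markers was 0.596 to 1.44 FPKM against 0.298 to 1.26 FPKM. The summed level was 116 to 138 FPKM in the 6 libraries against 73.9 to 100.3 FPKM for 5 endothelial genes, and 837 to 1123 FPKM against 354 to 771 FPKM for 5 choroid plexus genes. Ttr (mean 664 FPKM) made up nearly all of the choroid plexus sum. Of the endothelial genes 2 lay wholly above (Cldn5 and Ly6c1) and 0 below, and of the choroid plexus genes 2 lay wholly above (Ttr and Folr1) and 0 below. Pecam1 (log2 difference -0.05), Slco1c1 (-0.21), Kl (-0.57) and Slc4a5 (-0.17) had lower means in the 6 libraries. The sum of 5 meningeal genes was 17.4 to 23.1 FPKM in the 6 libraries against 11.6 to 15.9 FPKM. All 5 had higher means there, with 1 wholly above (Col1a1, log2 difference 0.94) and 0 below. No marker in these lists was at 0 in all mice. Their part in the difference of the 10 genes was not tested.

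To determine whether angiotensin II altered antigen presentation genes in the brain, mice infused with angiotensin II were compared with vehicle mice. No difference was detected in any of the 10 genes. In limma, 0 of 10 were under an unadjusted p-value of 0.05, against 2.21% of the 27286 genes tested, and none of all these genes passed an adjusted p-value of 0.05. Limma voom on the recovered fragments also gave 0 of 10. The median log2 fold change was -0.04 for the 10 genes and 0.02 for all genes. The class I genes had mean levels of 14.7 and 14.4 FPKM for H2-K1, 31.1 and 28.6 FPKM for H2-D1, and 98.0 and 94.1 FPKM for B2m with vehicle and angiotensin II, respectively. The largest log2 fold changes were -0.30 ± 0.30 for H2-Ab1 and -0.19 ± 0.26 for Psmb9 (SE).

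The effect of amnion epithelial cells was then compared during angiotensin II infusion. Again 0 of 10 genes were under an unadjusted p-value of 0.05, against 2.54% of all genes. The median log2 fold change was 0.06, and the largest was 0.43 ± 0.30 for H2-Ab1 (SE), with a limma p-value of 0.164 and an adjusted p-value of 1. In vehicle mice given amnion epithelial cells the count was also 0 of 10, against 2.41%, and the median was -0.10. These comparisons share their reference mice with the first one, so their values are not independent of it.

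The nearest to a difference in vehicle mice was in Psmb9. It was 0.433, 0.545 and 0.868 FPKM (lowest, median and highest of 6) with vehicle and 0.270, 0.374 and 0.783 FPKM with vehicle + amnion epithelial cells. Of the 6 treated mice 5 lay below all vehicle mice, and the other one, in the set of high total FPKM, was the second highest of the 12. The log2 fold change was -0.42 ± 0.26 (SE), with a limma p-value of 0.119 (adjusted p-value 0.995) and a two-sided exact permutation p-value of 0.0887.

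The interaction term asked whether the difference made by the cells depended on angiotensin II. The count was 0 of 10, against 2.54% of all genes, and the median was 0.16. The highest value was that of H2-Ab1. H2-Ab1 was 1.46, 2.12 and 4.30 FPKM (lowest, median and highest of 6) with vehicle, 1.38, 1.94 and 3.37 FPKM with angiotensin II, 1.21, 1.74 and 3.21 FPKM with vehicle + amnion epithelial cells, and 1.66, 2.42 and 4.78 FPKM with angiotensin II + amnion epithelial cells. All 4 groups overlapped, and the highest mouse of each came from the set of high total FPKM. The interaction was 0.84 ± 0.42 on the log2 scale (SE), with a limma p-value of 0.0568 and an adjusted p-value of 0.931.

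The 95% intervals of the 10 genes were narrower with the library set as a term. For Psmb9 the SE in angiotensin II against vehicle fell only from 0.26 to 0.20. With all 24 mice, the 95% intervals of the 40 effects (10 genes in 4 comparisons) reached 0.30 to 0.92 on the log2 scale to either side, and for H2-K1 with angiotensin II the interval was -0.34 to 0.34. With the library set as a term they reached 0.09 to 0.58. Changes well inside these intervals were not detectable with 6 mice per group.

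With the library set as a term, 1 of the 40 effects was under an unadjusted p-value of 0.05. This was the interaction of H2-Ab1, which was 0.50 on the log2 scale (95% interval 0.08 to 0.91), with a limma p-value of 0.0209 and an adjusted p-value of 1. The count is 1 of 10 genes in that comparison, against 3.41% of all genes, and 0 of 10 against 3.46%, 3.90% and 3.54% in angiotensin II against vehicle and with amnion epithelial cells in infused and vehicle mice. With each mouse left out in turn, the p-value of H2-Ab1 ran from 0.00655 to 0.0439 over 24 fits. Its components were -0.24 in vehicle mice and 0.25 in mice infused with angiotensin II, with limma p-values of 0.0962 and 0.0835. In the 18 libraries alone the interaction of H2-Ab1 was 0.42 (95% interval -0.12 to 0.96), with a limma p-value of 0.115, so the call was lost there. H2-Aa, which encodes the partner chain of the same dimer, had an interaction of the opposite sign. Over all 24 mice with the library set as a term it was -0.41, with a limma p-value of 0.112. Without that term the interaction of H2-Aa was -0.07. In the 18 libraries alone it was -0.56 (95% interval -1.14 to 0.01).

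The ratio of H2-Ab1 to H2-Aa in the same mouse was taken up after these values were seen and is given without a test. Its lowest, median and highest values in 6 mice were 0.886, 1.52 and 1.90 with vehicle and 0.728, 0.964 and 1.42 with angiotensin II. They were 0.794, 1.16 and 1.36 with vehicle + amnion epithelial cells and 1.23, 1.51 and 2.03 with angiotensin II + amnion epithelial cells. The groups overlapped, with the lower medians in the mice that received either agent alone. In the 18 libraries alone the medians were 1.52, 1.01, 1.14 and 1.51 in the same order of groups.

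In the 18 libraries alone, 5 of the 40 effects had an unadjusted p-value under 0.05, and none passed adjustment (lowest adjusted p-value 0.998, limma). H2-K1 had 3 of them. It was 10.9, 12.6, 12.6 and 12.9 FPKM in the 4 vehicle mice and 13.02, 13.5, 13.8, 14.04 and 14.5 FPKM in the 5 angiotensin II mice. The groups did not overlap. The log2 fold change was 0.17 ± 0.06 (SE, limma p = 0.0142, two-sided exact permutation p = 0.0159). In angiotensin II against vehicle this was 1 of 10 genes, against 3.86% of all genes. Without vehicle replicate 4, the lowest mouse, the fold change was 0.11 and the limma p-value 0.0765.

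The 4 mice given angiotensin II + amnion epithelial cells had 11.8, 12.3, 12.4 and 13.4 FPKM of H2-K1, of which 3 lay below all 5 mice infused with angiotensin II alone. The log2 fold change was -0.14 ± 0.06 (SE, limma p = 0.0310, exact permutation p = 0.0317), and it failed the threshold in 5 of 9 fits that left out 1 mouse. The angiotensin II mice are the same in both comparisons. The interaction for H2-K1 was -0.18 with a limma p-value of 0.0497 and failed in 10 of 18 such fits, as 1 of 10 genes against 4.20% of all genes. With all 24 mice the fold changes of H2-K1 were 0.00, 0.00 and 0.07.

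In the same 18 libraries, H2-Aa was 1.29 to 2.16 FPKM in mice infused with angiotensin II and 0.818 to 1.78 FPKM in those that also received amnion epithelial cells. These ranges overlapped, and the log2 fold change was -0.41 ± 0.19 (SE, limma p = 0.0460, exact permutation p = 0.119), failing in 6 of 9 fits with 1 mouse left out. H2-K1 and H2-Aa made 2 of 10 genes in this comparison, against 4.61% of all genes. Psmb9 was 0.433 to 0.596 FPKM in 4 vehicle mice and 0.270 to 0.399 FPKM in 5 vehicle mice given amnion epithelial cells. These did not overlap, and the log2 fold change was -0.44 ± 0.21 (SE, limma p = 0.0499, exact permutation p = 0.00794, the smallest that 4 against 5 mice allow). The limma call failed in 7 of 9 fits with 1 mouse left out, and it was 1 of 10 genes against 4.18% of all genes.

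**Figure D4:**
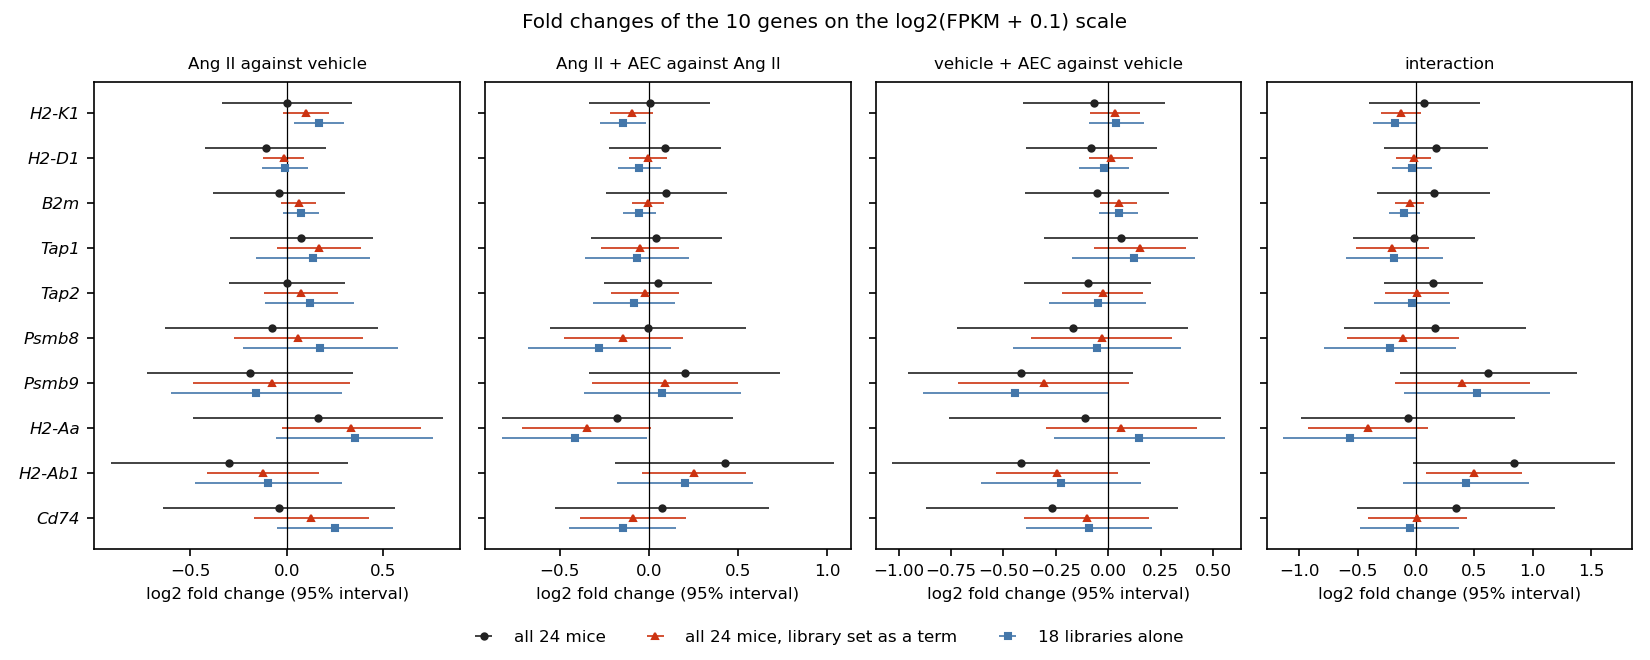
Log2 fold changes of the 10 genes on the log2(FPKM + 0.1) scale with 95% intervals in 4 comparisons (AEC, amnion epithelial cells), from all 24 mice (black circles), from all mice with the library set as a term (red triangles) and from the 18 libraries alone (blue squares). Every interval from all 24 mice crosses 0, and the interaction of H2-Ab1 is the only red interval that does not.

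Pathway genes outside the 10 were looked up only in the fit of all 24 mice, where the 10 genes had 0 calls as well. In that fit 2.21% to 2.54% of all genes were under an unadjusted p-value of 0.05, depending on the comparison. In all 24 mice, 0 of 19 class I pathway genes, 0 of 3 standard proteasome subunits, 0 of 12 class II pathway genes, 0 of 10 regulators and 0 of 17 interferon-induced genes were under an unadjusted p-value of 0.05 in any of the 4 comparisons. Among the cell type markers, F13a1 of perivascular macrophages was 0.322 ± 0.081 FPKM in vehicle mice and 0.458 ± 0.073 FPKM under angiotensin II (SD), at an unadjusted limma p-value of 0.0425 and an adjusted p-value of 0.994. Lum and Col1a1 of the meninges had unadjusted limma p-values of 0.0269 in vehicle mice given amnion epithelial cells (log2 fold change -0.34) and 0.0345 in the interaction (0.78). No other marker passed, and none passed adjustment. These marker calls stand beside the same 2.21% to 2.54% of all genes. The named markers also differed between the library sets, with log2 differences of 0.94 for Col1a1, 0.34 for Lum and -0.59 for F13a1. The part of the sets in these calls was not tested.

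To see how the 10 genes varied with each other from mouse to mouse, correlations were made within each library set, because the mice formed 2 clusters. Over the 18 libraries, Pearson's r of the 45 pairs had a median of 0.19 and a range of -0.385 to 0.624, 35 pairs were positive and 3 had a permutation p-value under 0.05. None of the 45 passed Benjamini-Hochberg adjustment. The closest pair was H2-Aa and Cd74 (r = 0.624, permutation p = 0.00636, adjusted p = 0.194, and Spearman's rho = 0.635, permutation p = 0.00586, adjusted p = 0.0879). Without the 2 mice farthest from the median of H2-Aa, r was 0.618. The chain genes H2-Aa and H2-Ab1 had r = 0.098 (permutation p = 0.702, adjusted p = 0.848, and rho = 0.055, permutation p = 0.833, adjusted p = 0.903), and r was 0.110 without the 2 farthest mice. Over the 6 libraries the median r was 0.15, with a range of -0.582 to 0.838, and no pair passed adjustment.

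**Figure D5:**
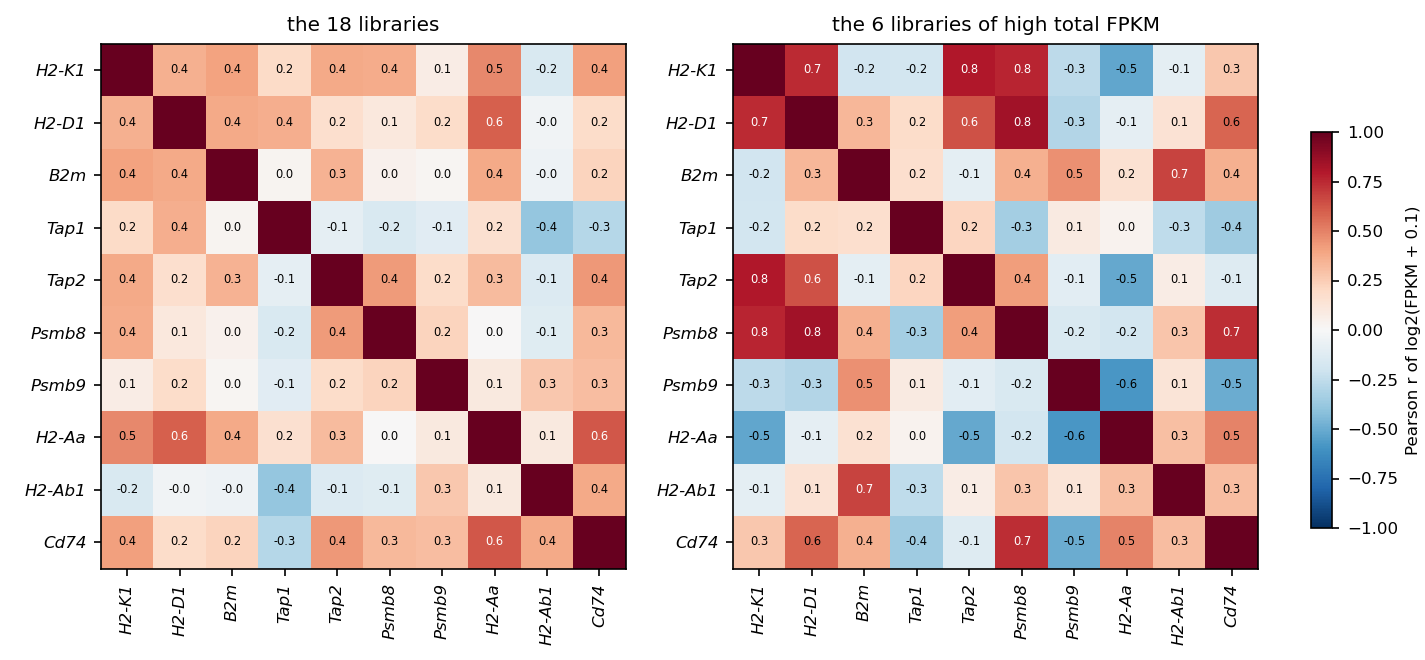
Pearson's r of log2(FPKM + 0.1) between the 10 genes across the 18 libraries (left) and across the 6 libraries of high total FPKM (right), with colour from -1 (blue) to 1 (red). The left values run from -0.385 to 0.624 and the right ones, over only 6 mice, from -0.582 to 0.838.

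Genes with a pattern like H2-K1, Psmb8 and H2-Ab1 were sought among 13641 genes with a mean of at least 1 FPKM, as a description. Over the 18 libraries, H2-K1 was most like Trmt112 (r = 0.852), Cd320 (r = 0.827) and Erp29 (r = 0.821). Psmb8 was most like Gramd2 (r = 0.797), Stk25 (r = 0.797) and Asb2 (r = 0.752), and H2-Ab1 was most like Neurl2 (r = 0.749), Slc30a10 (r = 0.715) and Gcnt4 (r = 0.711). Over all 24 mice, where both library sets enter, the closest genes were Erp29, Trmt112 and Sdc3 for H2-K1, Sipa1, Fbrs and Rasl10a for Psmb8, and Marcksl1, S100a13 and Pgls for H2-Ab1. Trmt112 and Erp29 were thus among the closest 3 to H2-K1 in both, and the other 2 genes shared no name between the lists.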

How the data were processed

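The authors extracted RNA from brain hemispheres and deposited 1 table of FPKM values with gene lengths and GRCm38 coordinates. The submitters' processing notes name GRCm38, mm10 and DESeq 1.10.1. Neither aligner nor counter nor strand setting is given in the sources used here. Multiplied by gene length, 100% of the deposited FPKM values were whole multiples of 1 fragment (tolerance 0.01), and no pair of mice in a group agreed within sampling noise (chi-square per gene of at least 3.19). Because FPKM are not counts, all 4 groups were fitted with limma 3.58.1 (R 4.3.3) on log2(FPKM + 0.1) on 27286 genes (above 0 in 6 or more of the 24 mice), with eBayes and trend and Benjamini-Hochberg adjustment. Fold changes on this scale understate those of low genes. Single genes were also tested with exact permutation tests. The labels do not say whether mice shared a cage or day. Correlations planned over 24 mice were made within the library sets, since the mice formed 2 clusters. The 10 genes were all named. In the comparisons between groups, pathway, interferon and marker genes were named where they had an unadjusted p-value under 0.05 in the fit of all 24 mice. Those named for their level or their difference between the library sets were picked after the values were seen. Not all genes that differed between the sets are named. The 3 genes most like H2-K1, Psmb8 and H2-Ab1 were taken by Pearson's r. The genes and lists were chosen with earlier results of these data known. Scripts were tested on simulated data. Counting error is the only error that fragment numbers describe.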

Additional observations from a re-analysis of the deposited data

Results flagged for a closer look

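In each of the 4 groups, the highest and lowest mouse of each of the 10 genes was compared with the nearest other mouse by Dixon's test at its 95% critical value for 6 mice. A mouse stood apart in 12 of 40 tests, whereas chance marks about 1 in 20. Each was the highest of its group and belonged to the 6 libraries of high total FPKM, and the 40 tests share the same mice.

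Replicate 5 of the angiotensin II group, the only library of the high set in that group, stood apart in 5 genes. It had 17.5 FPKM of H2-K1, 36.3 FPKM of H2-D1, 125.8 FPKM of B2m, 1.08 FPKM of Tap1 and 3.67 FPKM of H2-Aa. Replicate 6 of the vehicle + amnion epithelial cells group, likewise the only one of the high set there, stood apart in 6 genes. It had 20.5 FPKM of H2-K1, 42.5 FPKM of H2-D1, 130.4 FPKM of B2m, 0.783 FPKM of Psmb9, 3.21 FPKM of H2-Ab1 and 11.2 FPKM of Cd74. In the vehicle group, replicate 6 had 0.868 FPKM of Psmb9, against 0.596 FPKM in the next mouse. No mouse stood apart in the angiotensin II + amnion epithelial cells group, which held 2 libraries of the high set.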

How the results depend on the processing

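With all 24 mice, 0 of 10 genes were under an unadjusted p-value of 0.05 in each comparison. This count was also 0 in all 4 comparisons with a pseudocount of 1 or 0.01, no filter, a mean of at least 1 FPKM (where Tap1 and Psmb9 were not tested) and median ratio scaling, and 0 in the 3 group comparisons when only the groups compared were fitted. In the interaction it was 1 with voom on recovered fragments (H2-Ab1), 1 with array weights (Psmb9), 1 with the library set as a term (H2-Ab1), 1 with scaling and the set as a term, 1 in the 18 libraries (H2-K1), and 0 to 2 with each mouse left out. In the 18 libraries it was 1 in angiotensin II against vehicle, 2 with amnion epithelial cells added to angiotensin II and 1 in vehicle mice given the cells. In vehicle mice given the cells it was also 1 with array weights and 0 to 1 with each mouse left out. No gene passed an adjusted p-value of 0.05 under any of these settings. The share of all genes under 0.05 is given above for the main fit, the library set as a term and the 18 libraries. It is not given for the other settings, so their counts cannot be weighed against it.

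In the 18 libraries H2-K1 reversed its sign, to -0.14 with amnion epithelial cells added to angiotensin II and to -0.18 in the interaction. Of 40 effects, 17 changed sign with the library set as a term, 18 in the 18 libraries and 15 with array weights, and apart from the 2 effects of H2-K1 these had p-values of 0.05 or more both before and after. The median correlation between the genes was 0.187 in the 18 libraries, where 0 of 45 pairs passed adjustment, against 45 of 45 over all 24 mice. The cause of these changes was not tested.

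With the replicate number as a block, the interaction count was 2 (Psmb9 and H2-Ab1), and no other call changed. The share of all genes is not given for this setting either. The deviations of same-numbered mice from their group means correlated over 0.1 in 28 of 36 pairs but not in all (range -0.224 to 0.797), so the numbers were not taken as a pairing. Scaling and the set as a term together, and leaving out mice within the set or within the 18 libraries, were chosen after seeing the data. Fragment numbers limit Psmb9, Psmb8, H2-Aa and H2-Ab1 most.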
